A study of Mus musculus with 4 samples.

Results

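A set of 10 genes of iron uptake, storage and export was followed in the livers of mouse fetuses from dams on a control or a high-fat diet. They are the transferrin receptors Tfrc and Tfr2 with their partner Hfe, transferrin itself (Trf), the iron transporters Slc11a2 and Slc25a37, the ferritin chains Fth1 and Ftl1, the exporter Slc40a1 and the hormone Hamp. They were taken as a named list, by every non-control probe whose transcript belongs to one of them, and make up 10 of the 22909 named genes with a usable probe on the array. The 10 genes had 19 probes, and all 19 passed the filters and were well above background on every array.

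The study asked how a high-fat diet (HFD) eaten by the mother during gestation acts on the liver of her offspring, and profiled fetal livers at 14.5 days post coitum (dpc) on single-colour arrays. The 2 CD arrays held liver RNA from fetuses of C57BL/6J dams fed a control diet (CD) with 4.3% of its energy as fat. The 2 HFD arrays held liver RNA from fetuses of C57BL/6J dams fed a diet with 60% of its energy as fat. The labels name no mutation or transgene in either group, and give the sex as female without saying whether of dams or fetuses. The submitters call the arrays of a diet biological replicates and do not say how many fetuses or dams each holds.

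On such an array labelled RNA pairs with probes fixed to the glass, and a brighter spot means more of that transcript. A level here is the log2 intensity of a probe minus the 75th percentile of its array, and a difference is the mean level of the HFD arrays minus that of the CD arrays. Levels of different probes are not on a common scale, so each difference was taken within a probe. Across probes, levels served to pick the brightest probe and to place probes by brightness. The summed levels given for marker lists are rough for that reason. The CD arrays differed from each other with an SD of 0.58 (log2) over all tested probes, and the HFD arrays with an SD of 0.34. With 2 arrays per diet the smallest 2-sided p of an exact permutation test is 0.333, so probes were tested with limma, which shares the spread between probes. The cutoffs were 2-fold, as drawn in the paper's scatterplot, together with an unadjusted p under 0.05, the level its statistics call significant. The paper does not say that its genes were chosen by both. Benjamini-Hochberg adjusted p is given beside them.

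Iron travels in plasma bound to transferrin and enters cells when the complex is taken up by the transferrin receptor. In the endosome it is released and moved into the cytosol by a divalent metal transporter, then stored in ferritin, passed to mitochondria for heme, or exported by ferroportin. Hepcidin, made by hepatocytes, closes this exit by binding ferroportin, and its gene answers to iron through BMP and SMAD signalling and to inflammation through STAT signalling. The fetal liver at this age makes plasma proteins and is also the main site of red cell formation, so its iron genes are transcribed in hepatoblasts, in erythroblasts and in macrophages.

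Hamp, which encodes hepcidin, had the largest difference between the diets of the 10 genes. It was 1.85-fold higher in fetal livers of the HFD group, with an unadjusted limma p of 0.0273. The other 9 genes differed by −0.10 to 0.21 on the log2 scale. By limma, 0 of the 10 genes passed both cutoffs and 0 passed after adjustment over all tested probes (smallest adjusted p = 1.00), while 1 had an unadjusted p under 0.05. By the methods' t-test 0 had an unadjusted p under 0.05. Over all 41332 tested probes, 1.58% were higher and 1.76% lower in the HFD group at an unadjusted p under 0.05, and 0.293% were higher and 0.477% lower past both cutoffs.

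The difference was above 0 for 8 genes and below 0 for 2, with a median of 0.10 on the log2 scale beside 0.03 over all tested probes. Both HFD arrays lay above both CD arrays for 2 genes, Hamp and Hfe, an arrangement of 19.5% of all tested probes. For 0 genes did both lie below, beside 11.1% of all tested probes. The share of 2 in 10 is near the background and says nothing about the list.

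**Figure D1:**
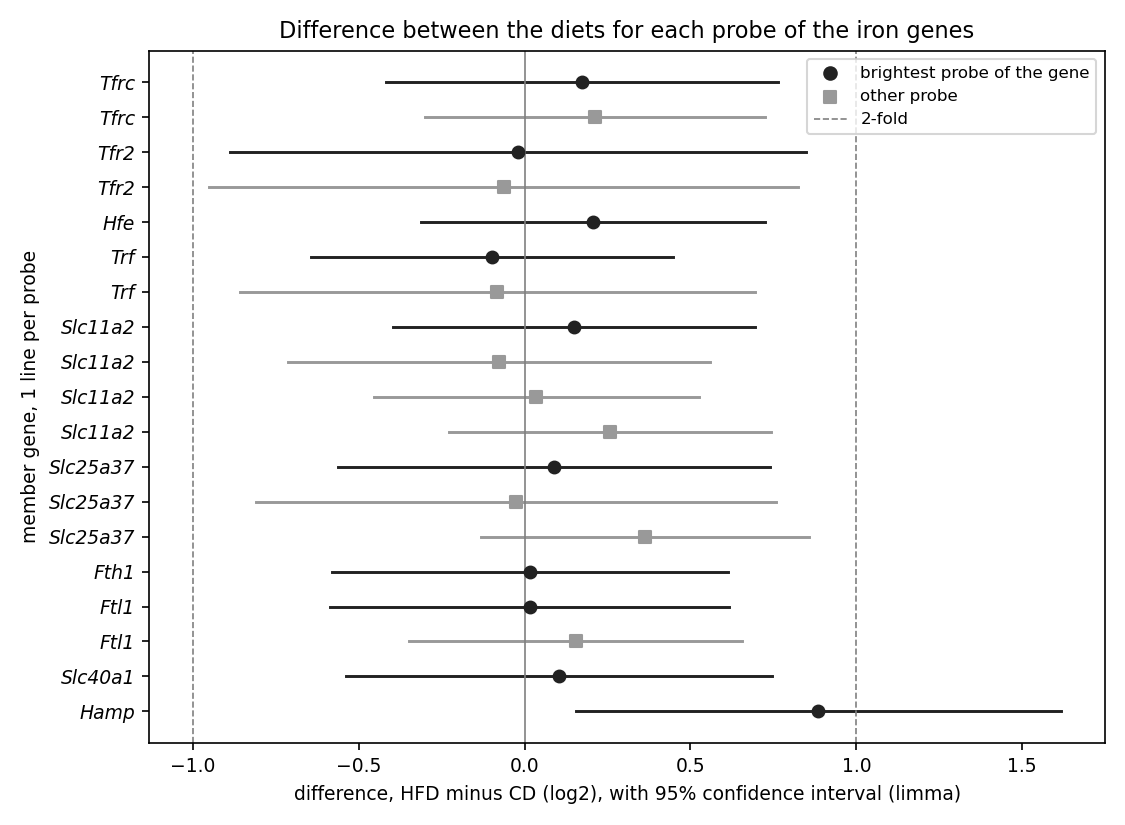
Difference between the diets on the log2 scale, HFD minus CD, for each of the 19 probes of the 10 genes, with its 95% confidence interval from limma. Circles are the brightest probe of a gene, squares its other probes, and dashed lines a 2-fold change; the interval of Hamp alone does not include 0.

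Because Hamp is the member whose arrays separated most, the DNA before its start is shown beside that of Hamp2, a second mouse hepcidin gene that lies close by on the same chromosome. The sequences are the 250 bases before the annotated start in RefSeq (GRCm38.p6), on the minus strand of chromosome 7, at chr7:30944030-30944279 for Hamp and chr7:30924182-30924431 for Hamp2. Capitals mark GGCGCC, the core of the BMP-responsive element, and TTCNNNGAA, the pattern that STAT factors bind.
Hamp: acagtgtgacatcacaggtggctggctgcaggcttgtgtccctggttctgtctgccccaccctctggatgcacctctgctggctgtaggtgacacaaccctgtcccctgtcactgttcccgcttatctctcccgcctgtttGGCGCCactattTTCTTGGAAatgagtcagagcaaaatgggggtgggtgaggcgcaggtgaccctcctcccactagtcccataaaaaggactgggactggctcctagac
Hamp2: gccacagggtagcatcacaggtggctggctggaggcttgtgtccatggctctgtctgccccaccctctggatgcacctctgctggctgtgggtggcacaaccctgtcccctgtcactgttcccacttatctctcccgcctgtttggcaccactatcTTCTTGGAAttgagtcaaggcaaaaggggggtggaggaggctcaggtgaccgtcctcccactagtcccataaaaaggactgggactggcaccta

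The windows were identical at 227 of 253 aligned positions, or 89.7%. Hamp held GGCGCC from base −109 to −104 and TTCTTGGAA from base −97 to −89, counted back from the start, and the matches did not overlap. Hamp2 held TTCTTGGAA from base −94 to −86, and GGCGCC was not in its window. Both patterns read the same on either strand. Of 32851 promoter windows of this length, 9.59% held GGCGCC, 7.02% held TTCNNNGAA and 0.368% held both. Of the 10 genes, 6 were matched in the promoter table, with 10 windows. Of these, GGCGCC was in 2, 1 of Hamp and 1 of Tfrc, and TTCNNNGAA in 1, that of Hamp. A match describes letters only.

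Hamp was measured by 1 probe, A_52_P669922, made for NM_032541. Its level was −2.52 on CD replicate 1 and −1.96 on CD replicate 2, and −1.16 on HFD replicate 1 and −1.55 on HFD replicate 2. Both HFD arrays were thus above both CD arrays, and the nearest pair, HFD replicate 2 and CD replicate 2, was 0.41 apart. The scanner intensities behind these levels were 187, 181, 434 and 311. They were low for this array but clear of the background, since the dimmest signals called well above background had levels between −6.02 and −5.57. The means were −2.24 ± 0.40 (SD, n = 2) for CD and −1.35 ± 0.27 (SD, n = 2) for HFD. The difference was 0.89 ± 0.28 (SE) on the log2 scale, with a 95% confidence interval from 0.15 to 1.62, and ranked 750 of 41332 tested probes by limma's p. The change of 1.85-fold missed the cutoff of 2-fold.

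The unadjusted p of Hamp depended on CD replicate 1 and HFD replicate 1. The difference was 0.61 when CD replicate 1 was left out (limma, unadjusted p = 0.0804) and 0.69 when HFD replicate 1 was left out (limma, unadjusted p = 0.141). It was 1.17 without CD replicate 2 and 1.08 without HFD replicate 2, where limma gave unadjusted p-values of 0.0166 and 0.0295, and in both of these fits Hamp passed both cutoffs. The lone array left in a diet was assumed to vary like the pair of the other diet. With array weights the unadjusted p was 0.0525 and by the methods' t-test 0.121. In all, Hamp was higher in the HFD group under each of 20 alternatives, but these are not 20 separate checks. Those that change only the filter, the test or the spread left the difference at 0.89. Leaving out 1 array could not turn its sign, since both HFD arrays were above both CD arrays.

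**Figure D2:**
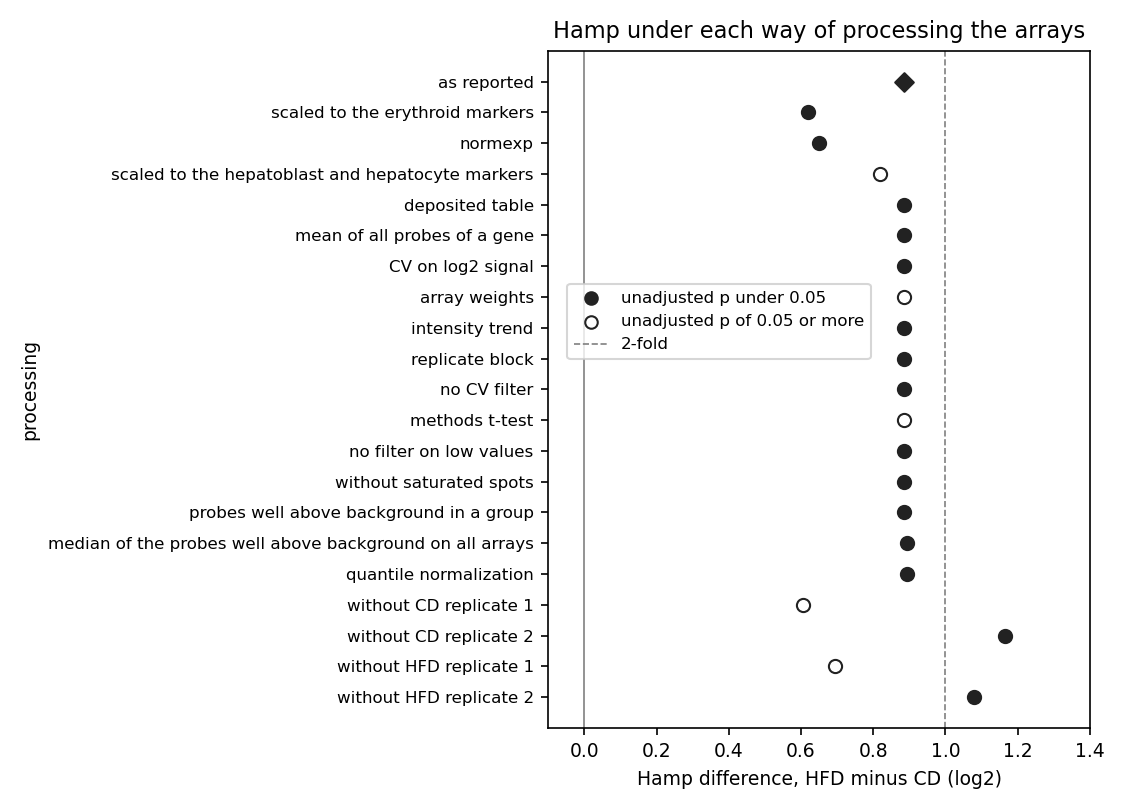
Hamp difference between the diets on the log2 scale, HFD minus CD, as reported (diamond) and under each of 20 alternatives (circles), filled where the unadjusted p was under 0.05. The values run from 0.61 to 1.17, and the lowest and highest both come from leaving out a CD array.

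Hamp2 had 1 probe, which was well above background on 2 of the 4 arrays. Its level was −5.74 and −6.30 under CD and −5.23 and −6.18 under HFD, so the diets overlapped. The genes are paralogs, and the probe letters were not used here, so signal passing between their probes was not tested.

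The other gene of iron exit is Slc40a1, which encodes ferroportin, the exporter that hepcidin binds. Its level was 3.29 and 3.83 under CD and 3.72 and 3.60 under HFD. Both HFD arrays lay between the CD arrays, and the difference was 0.10 ± 0.24 (SE).

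Tfrc, Tfr2 and Hfe stand for the sensing of transferrin. Tfrc encodes the receptor that brings transferrin into cells and is most abundant on erythroblasts. Its brighter probe read 4.19 and 4.66 under CD and 4.60 and 4.59 under HFD. The HFD arrays lay within 0.01 of each other and between the CD arrays, and the difference was 0.17 ± 0.22 (SE). A further Tfrc probe gave 0.21 ± 0.19. Neither passed the test, and a 95% confidence interval from −0.42 to 0.76 for the brighter probe gives the size of change the arrays could not tell from none.

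Tfr2, a receptor of hepatocytes and erythroid cells that takes part in sensing iron for hepcidin, had the widest spread between arrays after Hamp. Its brighter probe, for NM_001289509, read 2.76 and 3.62 under CD and 3.23 and 3.11 under HFD. The CD arrays thus differed by 0.85 and enclosed the HFD arrays, and the difference was −0.02 ± 0.33 (SE). The other probe, for NM_015799, gave −0.06 ± 0.33 with the arrays in the same order. Without CD replicate 1 the Tfr2 difference was −0.45 and without CD replicate 2 it was 0.41, so that its sign was set by which CD array was kept.

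Hfe, the gene altered in the commonest hereditary hemochromatosis, encodes a partner of the transferrin receptors that takes part in the control of hepcidin. Its level was 0.05 and 0.39 under CD and 0.45 and 0.39 under HFD. The diets did not overlap, but the gap between the nearest arrays rounded to 0.00, and the difference was 0.21 ± 0.20 (SE, limma, unadjusted p = 0.345). The HFD and CD arrays of Hfe overlapped with normexp background correction, with each array centred on the median of the probes well above background on all arrays, and when scaled to the hepatoblast and hepatocyte markers. Scaled to the erythroid markers, both HFD arrays of Hfe lay below both CD arrays, with a difference of −0.06.

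Trf, the plasma iron carrier secreted by liver cells, read 8.03 and 8.40 under CD and 8.05 and 8.18 under HFD. Its difference was −0.10 ± 0.21 (SE), the lowest of the 10 genes, and both HFD arrays lay between the CD arrays. Its other probe gave −0.08 ± 0.29.

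Slc11a2, the divalent metal transporter that carries iron out of the endosome, had 4 probes. The brightest read 1.63 and 2.02 under CD and 1.96 and 1.98 under HFD, a difference of 0.15 ± 0.21 (SE). The others gave 0.26, 0.04 and −0.08, the last being the probe for NM_001146161, and 1 of the 4 probes had both HFD arrays above both CD arrays.

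Slc25a37, or mitoferrin, brings iron into the mitochondria of erythroblasts for heme. Its 3 probes did not give a single picture. The brightest read 7.79 and 8.33 under CD and 8.07 and 8.22 under HFD, a difference of 0.09 ± 0.25 (SE). A dimmer probe for the same transcript read 3.88 and 4.0, then 4.17 and 4.44, with both HFD arrays above both CD arrays and a difference of 0.36 ± 0.19, which did not pass the test (limma, unadjusted p = 0.115). The dimmest gave −0.03 ± 0.30.

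The ferritin chains did not pass the test. Fth1, the heavy chain that oxidises iron as it enters the shell, read 7.96 and 8.43 under CD and 8.16 and 8.26 under HFD. Ftl1, the light chain that helps the mineral core form, read 8.36 and 8.84, then 8.56 and 8.66 at its brighter probe. At these probes the HFD arrays lay between the CD arrays, and the difference was 0.02 ± 0.22 (SE) for Fth1 and 0.02 ± 0.23 for Ftl1. The other Ftl1 probe read 6.19 and 6.47, then 6.42 and 6.55, with HFD replicate 2 above both CD arrays and a difference of 0.15 ± 0.19. Ferritin and Tfrc are also controlled after transcription, through iron-responsive elements in their RNA, which an array of transcripts does not measure.

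The order of the arrays was shared by almost the whole list. CD replicate 1 was the lowest array for all 10 genes, and for all 19 probes, beside 37.3% of all tested probes. For 8 of the 10 genes, and for 12 of the 19 probes, CD replicate 2 was at the same time the highest, beside 21.2% of all tested probes, and the exceptions among the genes were Hamp and Hfe. The median member stood 0.30 below its own mean on CD replicate 1 and 0.22 above it on CD replicate 2, and 0.06 above it on each HFD array. Tested probes with a level of at least 6 did so to a lesser degree, with medians of −0.21 and 0.16 on the CD arrays, and those between −2 and 0, where Hamp lies, stayed at −0.01 and −0.02. Hfe, Slc11a2, Tfr2, Slc40a1 and Tfrc lie between these bands. Tested probes there had CD medians of −0.08 and 0.02 (levels 0 to 2), −0.12 and 0.03 (2 to 4) and −0.17 and 0.04 (4 to 6).

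**Figure D3:**
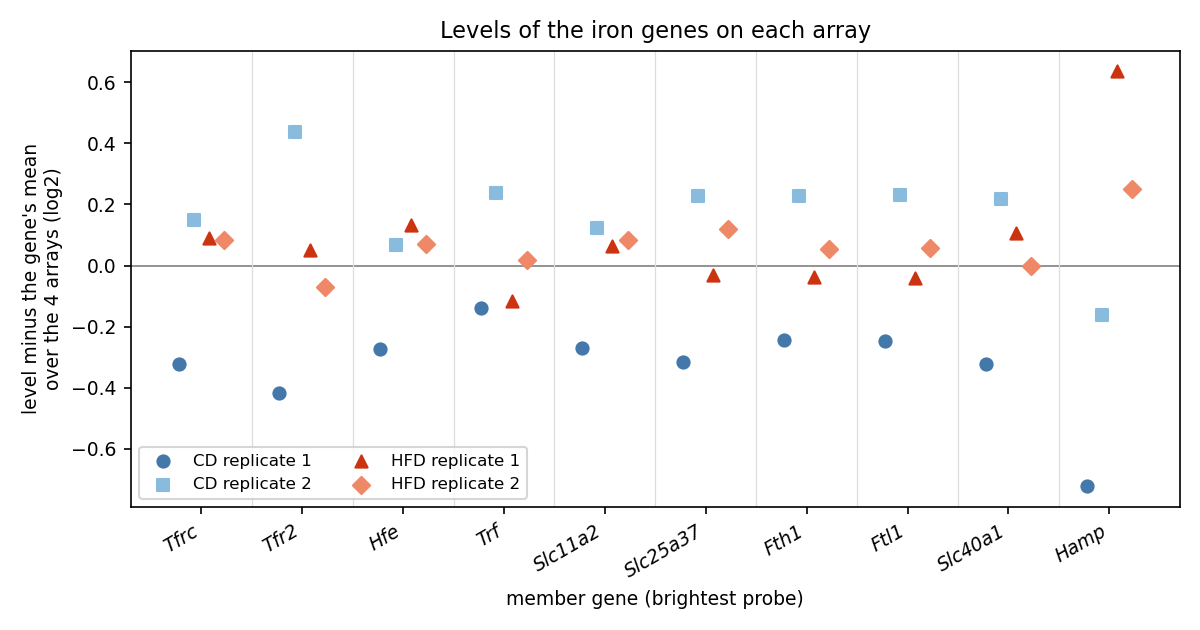
Level of the brightest probe of each of the 10 genes on each array, on the log2 scale, minus the mean of that gene over the 4 arrays. Circles and squares are CD replicates 1 and 2, triangles and diamonds HFD replicates 1 and 2; except for Hamp and Hfe, the CD arrays enclose the HFD arrays.

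In bulk tissue, fewer cells of a type and less RNA per cell cannot be told apart, so markers of the cells that use these genes were read on the same arrays. All 16 hepatoblast and hepatocyte markers, Alb and Afp among them, were well above background on every array, as were all 15 erythroid markers with a probe, so the tissue carried the marks of fetal liver. The hepatoblast and hepatocyte list had medians of −0.29 and 0.25 under CD and 0.04 and −0.01 under HFD, close to those of the iron genes. The erythroid list had −0.28 and 0.13, then 0.07 and 0.12, and 9 of 10 macrophage markers were detected throughout and Vsig4 on no array, with −0.21 and 0.28, then 0.01 and −0.01. The part of these cells in the order of the arrays was not tested.

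Scaled to the median of the erythroid markers in place of the 75th percentile, which lowered every difference by 0.27 and the median of all tested probes to −0.24, 9 of the 10 genes were lower in the HFD group, by −0.36 for Trf to −0.06 for Hfe. None of these 9 passed the test, and 7 of them had both HFD arrays below both CD arrays, beside 43.5% of all tested probes under this scaling. Of the 10 genes Hamp alone was higher, by 0.62 ± 0.20 (SE, limma, unadjusted p = 0.0368), with both HFD arrays above both CD arrays, beside 1.56% of all tested probes. Scaled to the hepatoblast and hepatocyte markers, 6 genes were higher and 4 lower, and Hamp was higher by 0.82 ± 0.35 (unadjusted p = 0.0556).

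The arrays also differed in markers of tissues other than liver, and whether RNA of those tissues was present was not tested. Of 12 trophoblast and decidua markers, 9 had both HFD arrays below both CD arrays, beside 11.1% of all tested probes. The median difference over the 12 was −3.85. Some of the 12, such as Tpbpa, are in the paper's own list of changed genes from these arrays, so their difference is not a separate finding. Only 3 of the 12 passed the filters, and Syna was not well above background on any array. Relative to each gene's own mean, the list had medians of 0.92 and 2.80 under CD and −0.99 and −2.76 under HFD. Its summed level, which is set by the brightest probes, ranged from 6.04 to 6.23 on the CD arrays and from 5.57 to 5.64 on the HFD arrays, and Gcm1, the brightest on 3 of the 4 arrays, differed the other way, by 0.55. Tpbpa, a trophoblast gene, read 3.01 and 4.80 under CD and 1.00 and −1.01 under HFD. Of 10 gonad, adrenal and steroid markers, 6 had both HFD arrays above both CD arrays, beside 19.5% of all tested probes. The 10 had a median difference of 0.82, and medians relative to each gene's mean of −0.23 and −0.80, then 0.31 and 0.51. The summed level ranged from 5.56 to 5.94 and from 5.69 to 6.02. Of 10 kidney and mesonephros markers 4 had both HFD arrays above both CD arrays (median 0.32 over the 10), beside the same 19.5%. Slc12a1, 1 of the 4, was like Umod not well above background on any array. Slc12a1 and Cdh16, another of the 4, did not pass the filters. Cdh16 and the steroid marker Cyp11a1, 1 of the 6 above, are also in the paper's own list, so their differences are not separate findings. Of 10 neuron markers 9 were lower in the HFD group (median −0.58). For 6 of them both HFD arrays lay below both CD arrays, beside 11.1% of all tested probes. The part of these tissues in the Hamp difference was not tested.

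**Figure D4:**
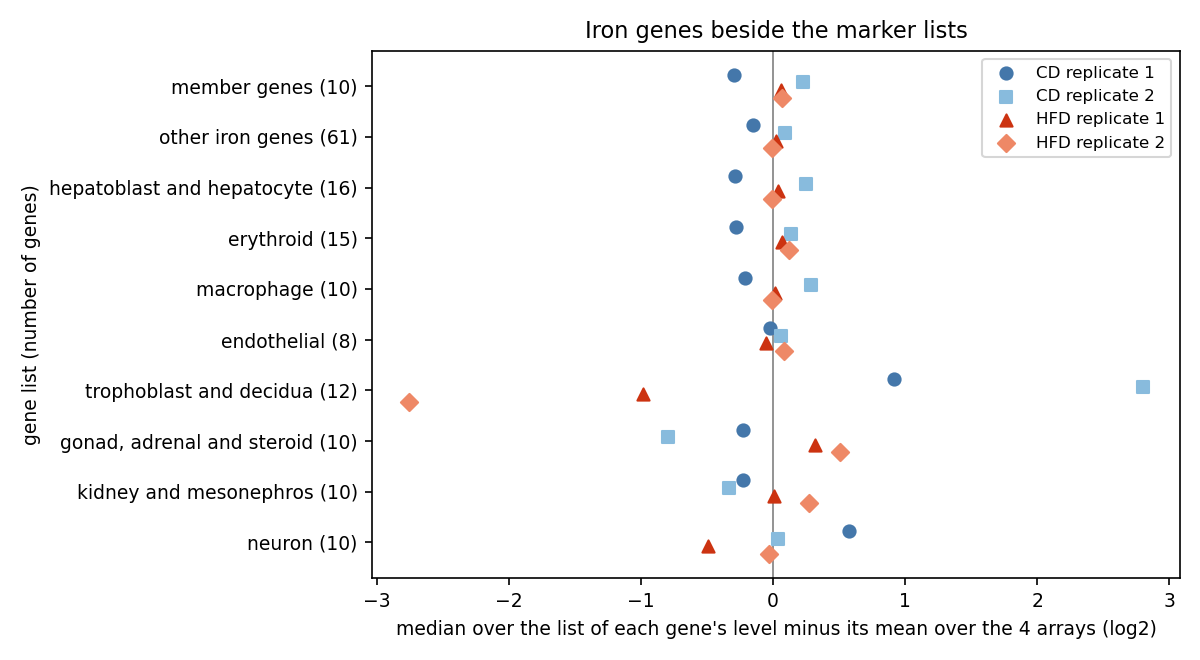
Median over each gene list of the level on an array minus the gene's mean over the 4 arrays, on the log2 scale, for the 10 iron genes, 61 other iron genes and 8 marker lists, with the number of genes in brackets. The iron genes, hepatocyte, erythroid and macrophage lists share a low CD replicate 1, whereas the trophoblast list spans from −2.76 to 2.80 and separates the diets.

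A further 61 genes of iron handling were read by their role. Of 59 that passed the filters, limma placed 0 past both cutoffs and 0 after adjustment, and 1 had an unadjusted p under 0.05, with 6 by the methods' t-test, beside 5.05% of all tested probes by that test. Both HFD arrays lay above both CD arrays for 13 of the 61 and below for 6, beside the 19.5% and 11.1% of all tested probes. Their median difference was 0.06 on the log2 scale, with a range from −0.46 to 0.51, so that none reached the 0.89 of Hamp.

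The 1 gene was Hscb, a cochaperone that hands iron-sulfur clusters to their targets, with levels of 3.43 and 3.39 under CD and 3.83 and 4.0 under HFD. Its difference was 0.51 ± 0.17 (SE, limma, unadjusted p = 0.0332), with both HFD arrays above both CD arrays. Its unadjusted p was under 0.05 in 11 of 20 alternatives, and not when either HFD array was left out. The other 9 genes of mitochondrial iron and iron-sulfur clusters did not pass the test.

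Genes that act on hepcidin transcription were read next, in a list that also held Hamp2. Of 19 listed, 0 had an unadjusted p under 0.05 by limma, the median difference was 0.01, and 1 had both HFD arrays above both CD arrays while 4 had them below, beside 19.5% and 11.1% of all tested probes. The largest difference was that of Hjv, the BMP co-receptor hemojuvelin, which read −2.48 and −2.10 under CD and −2.88 and −2.61 under HFD, or −0.46 ± 0.22 (SE, unadjusted p = 0.0995). Atoh8 had the smallest unadjusted limma p of the 19, at 0.0515. It differed by −0.44 ± 0.17 (SE), with both HFD arrays below both CD arrays, and its unadjusted p was under 0.05 by the methods' t-test. The ligand Bmp6 differed by −0.30 and Bmp2 by 0.20. Id1 and Smad7, which BMP signalling itself induces, differed by 0.08 and 0.09. Tmprss6, the protease that cleaves hemojuvelin, differed by 0.11. Erfe, the erythroid hormone that lowers hepcidin, read −2.0 and −0.96 under CD and −1.61 and −1.84 under HFD, with a difference of −0.25 ± 0.39.

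Among the 13 genes of heme salvage, 4 had both HFD arrays above both CD arrays and 1 had them below, beside the same 19.5% and 11.1%. Spic, a transcription factor of the macrophages that recycle red cells, showed the largest difference, 0.48 ± 0.23 (SE, limma, unadjusted p = 0.0985), with 0.04 and 0.56 under CD and 0.77 and 0.79 under HFD. Hmox1, which opens the heme ring and releases its iron, differed by 0.41 ± 0.18 (unadjusted p = 0.0819), with 4.14 and 4.39, then 4.62 and 4.73. Flvcr1 had the smallest unadjusted limma p of the 13, at 0.0613, with a difference of 0.40 ± 0.16 (SE). Lrp1, the gene with both HFD arrays below both CD arrays, differed by −0.39 ± 0.17 (limma, unadjusted p = 0.0762). By limma none of these passed the test, whereas Flvcr1 had an unadjusted p under 0.05 by the methods' t-test.

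The remaining roles gave smaller sets. In uptake and reduction, 3 of 9 genes, Steap1, Steap2 and Steap3, had both HFD arrays above both CD arrays, beside 19.5% of all tested probes. None of the 3 passed the test, with differences of 0.37, 0.18 and 0.35, and Steap4 overlapped at −0.23. The gene with the largest difference there was Scara5, a ferritin receptor, at −0.40 ± 0.27. In storage, Ncoa4, which delivers ferritin to the lysosome, read 5.21 and 5.38 under CD and 5.60 and 5.85 under HFD, with a difference of 0.43 ± 0.19 (SE, limma, unadjusted p = 0.0730). Heph, a ferroxidase that works with ferroportin, differed by 0.24 ± 0.29. Aco1, one of the iron-responsive RNA-binding proteins, differed by −0.16 ± 0.26, and the diets overlapped for all 3 genes of that role.

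**Figure D5:**
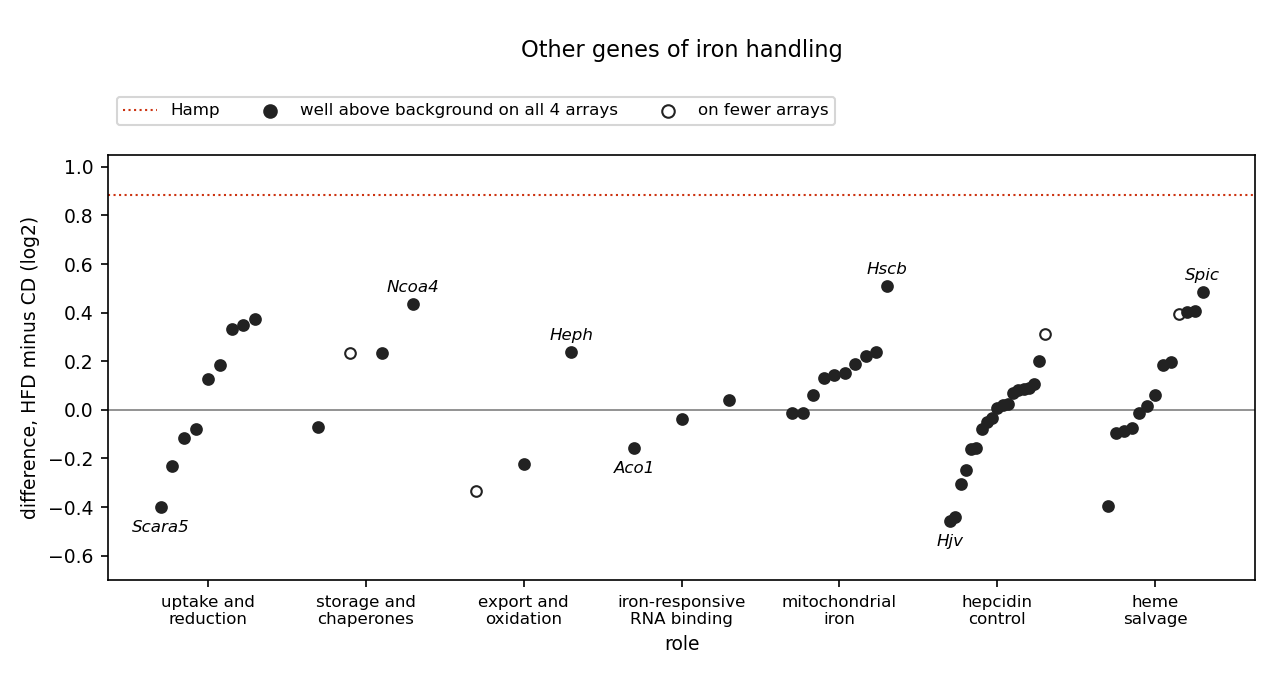
Difference between the diets on the log2 scale, HFD minus CD, for the brightest probe of 61 other iron genes, grouped by role and ordered within it. Filled points were well above background on all 4 arrays, open points on fewer, the dotted line is Hamp at 0.89, and the name marks the largest difference in each role among the filled points.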

How the data were processed

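Gene expression was measured in 4 fetal liver samples, 2 per maternal diet, on Agilent mouse arrays. The labels gave the groups and replicates, and the paper's methods the fetal age and filters. The CV filter was set on the linear scale here, whereas the paper names the log scale for it. The authors hybridised Cy3-labelled RNA, read the image with Feature Extraction 11.0.1.1 (per the labels) and deposited for each spot an intensity with the background subtracted, not scaled between arrays, beside flags scored 0 or 1. Their deposited table of normalised signal was the intensity divided by 1 constant per array, and served as an alternative. There was 1 slide and 1 scan, 65.4% to 70.0% of their spots were well above background, and 0 spots were saturated. The number of arrays limits the precision.

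The log2 intensity was averaged over the spots of a probe without outlier flags, and the 75th percentile of each array's non-control probes was subtracted. Probes dimmer than the 20th percentile of any array (14980) and those with a CV over 50% under both diets (284, linear scale) were left out. The 41332 others were fitted with limma 3.58.1 in R 4.3.3 (HFD minus CD, no covariates), with Benjamini-Hochberg adjustment over all of them, and the steps were tested on simulated data. Probes were named through their transcripts and RefSeq (GRCm38.p6), and a gene is given by its brightest probe. Tables and figures were made with Python 3.11.15.

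The members and lists were chosen with earlier results of these data known. The text names all 10 members and, of the other iron genes, those with an unadjusted p under 0.05 and the largest difference of each role among genes well above background on all 4 arrays. Hmox1, Bmp2, Bmp6, Id1, Smad7, Tmprss6, Erfe, Hamp2 and the Steap genes were added for their roles after their values were seen, as were the marker genes and the single arrays pointed out. Atoh8 and Flvcr1 were added for the smallest limma p of their roles. Lrp1 was added as the heme salvage gene with both HFD arrays below both CD arrays. Alternatives were quantile normalization, centring on detected probes, normexp with an offset of 50, the deposited table, other filters, all probes of a gene, an intensity trend, array weights, the methods' t-test, a replicate block, scaling to marker lists and leaving out each array. Normexp was run on the median brightness of a spot, since the columns used here hold no mean. Slide and scan could not be blocked.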

Additional observations from a re-analysis of the deposited data

How the results depend on the processing

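Under 20 alternatives, many of which leave the values of Hamp unchanged, its difference stayed above 0, from 0.61 to 1.17. Leaving out 1 array at a time gave a median member difference from −0.17 to 0.37 and 2 to 10 member genes whose groups did not overlap. All 10 were without overlap when either CD array was left out, since for 8 the CD arrays enclosed the HFD arrays. When either CD array was left out, limma gave an unadjusted p under 0.05 to many more of all tested probes. The spread then came from the HFD pair alone, so members past that p were not counted. Members without overlap were Hamp and Hfe as reported and Hamp and Slc11a2 with normexp, and numbered 5 with quantile normalization and 1 with centring on the probes well above background on all arrays. The share of all tested probes without overlap was not taken under these alternatives or with an array left out. These counts therefore say nothing about the list. Of the other iron genes, 0 passed the cutoffs under any of 18 alternatives. By limma as reported, 1 of the 59 tested had an unadjusted p under 0.05, beside 1.58% of all tested probes higher and 1.76% lower. With an array left out, the other iron genes past that p were not counted either.

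The sign of small differences turned with the array left out: the ranges were −0.22 to 0.25 for Fth1, −0.22 to 0.26 for Ftl1, −0.050 to 0.35 for Slc11a2, −0.18 to 0.36 for Slc25a37, −0.17 to 0.37 for Slc40a1, −0.45 to 0.41 for Tfr2, −0.063 to 0.41 for Tfrc and −0.29 to 0.089 for Trf. The cause was not tested. Scaling to a marker list takes 1 amount from every probe's difference, 0.27 for the erythroid and 0.066 for the hepatoblast and hepatocyte markers, so the signs it turned were those of smaller differences. Scaling to the erythroid markers turned Fth1 (−0.25), Ftl1 (−0.25), Hfe (−0.060), Slc11a2 (−0.12), Slc25a37 (−0.18), Slc40a1 (−0.16) and Tfrc (−0.092), and scaling to the hepatoblast and hepatocyte markers turned Fth1 (−0.049) and Ftl1 (−0.050).

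The deviations of same-numbered arrays from their diet means had r = −0.10 over 41332 probes, which are not independent. With so few arrays per diet, this single correlation cannot decide whether the replicate number pairs the arrays. With the replicate block the Hamp difference was 0.89 with an unadjusted limma p of 0.0195, and 0 members passed the cutoffs.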
